A study of Mus musculus with 2 samples.

Results

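NF-κB target and inflammasome genes were examined in livers lacking hepatocyte Lpcat3. They comprised 10 genes, Icam1, Vcam1, Nfkbia, Nfkbiz, Tnfaip3, Relb, Birc3, Il1b, Il1rn and Nlrp3, out of 18193 genes named on the array. All probe sets annotated to these genes by symbol or gene ID were taken, 22 of 45037. Each gene had at least 1 probe set, and no probe set of several genes listed any of them. Total liver RNA of male mice was hybridized to Affymetrix mouse expression arrays, which read each transcript through 1 or more probe sets. L-Lpcat3 KO mice carried homozygous floxed Lpcat3 alleles with the albumin-Cre transgene, and Flox/Flox mice carried the same floxed alleles without Cre. Both groups were fed chow, were 12 weeks of age and had their livers taken after a fast of 6 hr. Each genotype is represented by 1 array of RNA pooled from 5 mice. No test is possible, and no difference given here can be set against variation among mice. Albumin-Cre acts in hepatocytes, so the other cells of the liver keep Lpcat3, and because the controls lack Cre, effects of the transgene and of the deletion cannot be told apart.

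NF-κB is a family of dimeric transcription factors that IκB proteins hold in the cytoplasm. Receptors for TNF, IL-1 and microbial products activate a kinase complex that marks IκB for destruction, and the freed dimers induce adhesion molecules, chemokines and cytokines together with the inhibitors that shut the response off. In macrophages the same signal primes the inflammasome by raising the sensor Nlrp3 and the precursor of IL-1β, which caspase-1 then cleaves. In liver these genes respond in Kupffer cells and endothelium as well as in hepatocytes.

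Signals are MAS5 intensities in arbitrary units on a linear scale. Those below 76.4, the median signal of both arrays together, were treated as near background and raised to this floor. As a gauge of background, 28 genes made in tissues other than liver had 51 probe sets, with a median signal of 12.4 and 12.7% of signals over the floor. By their brightest probe sets, Prm1 read 734 in L-Lpcat3 KO and 780 in Flox/Flox, and Gnat1 368 in L-Lpcat3 KO and 501 in Flox/Flox. The other Prm1 probe sets read only 1.47 and 1.39 in L-Lpcat3 KO, and 0.34 and 0.90 in Flox/Flox. A signal above the floor therefore does not by itself show expression in liver. The Lpcat3 signal was 1305 in L-Lpcat3 KO and 3310 in Flox/Flox (log2 ratio -1.34), by a probe set that may lie outside the deleted exon. All 9 hepatocyte markers measured were above the floor in both pools, with log2 ratios from -0.14 to 0.08. Ratios of 3′ to 5′ control signal were 0.851 in L-Lpcat3 KO and 0.866 in Flox/Flox for Gapdh. For Actb they were higher, 2.32 in L-Lpcat3 KO and 2.34 in Flox/Flox.

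By the brightest probe set of each gene, 9 of the 10 genes were above the floor in both pools and Relb was below it in both. Il1b and Nlrp3 were at least 1.5-fold higher in L-Lpcat3 KO and Icam1 at least 1.5-fold lower, while 6 genes lay within 1.5-fold and none reached 2-fold. Of all 12061 genes measured, 4.0% passed 1.5-fold on the high side and 3.14% on the low side, and 1.07% were 2-fold apart. The 2 higher genes are 22.2% of 9, and the 1 lower gene is 11.1%. The median log2 ratio of the 9 genes was 0.10, against 0.00 for all genes measured, and single values ran from -0.91 (Icam1) to 0.94 (Il1b), with 5 above 0 and 4 below. The 3 genes past 1.5-fold were not among those bright in both pools. Vcam1, Nfkbia, Nfkbiz and Birc3 were above 386, the 75th percentile of all signals, in both pools, and all 4 lay within 1.5-fold, as did all but 1.49% of the 6823 genes this bright. The other 5 genes held all 3 that passed 1.5-fold. Of the 5238 measured genes not above 386 in both pools, 14.5% passed this size in either direction. Icam1 fell in this set only by its L-Lpcat3 KO signal (313, against 587 in Flox/Flox). Because the split uses both signals, a large ratio can itself place a gene there, so these percentages are not independent of the ratios. The genes therefore did not move one way as a group.

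Promoters of the gene with the lowest ratio (Icam1), the gene with the highest (Il1b) and the brightest gene (Nfkbia) are printed here to show the sequence in which NF-κB sites would lie. Each is the 250 bases before the annotated transcript start in RefSeq, build GRCm38.p6, at chr9:21015690-21015939 on the plus strand for Icam1, chr2:129371140-129371389 on the minus strand for Il1b and chr12:55492648-55492897 on the minus strand for Nfkbia. Capitals mark matches to GGNNNTTCC on either strand, a pattern chosen after these promoters had been seen.
Icam1: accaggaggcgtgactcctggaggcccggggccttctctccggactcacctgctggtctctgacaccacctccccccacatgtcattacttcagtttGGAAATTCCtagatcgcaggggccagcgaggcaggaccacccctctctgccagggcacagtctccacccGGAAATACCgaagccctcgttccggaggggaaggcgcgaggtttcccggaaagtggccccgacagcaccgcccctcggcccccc
Il1b: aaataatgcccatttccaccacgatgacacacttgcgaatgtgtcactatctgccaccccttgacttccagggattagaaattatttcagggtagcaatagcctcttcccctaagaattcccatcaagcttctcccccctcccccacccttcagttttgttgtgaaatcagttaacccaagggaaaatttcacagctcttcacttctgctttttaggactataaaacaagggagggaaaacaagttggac
Nfkbia: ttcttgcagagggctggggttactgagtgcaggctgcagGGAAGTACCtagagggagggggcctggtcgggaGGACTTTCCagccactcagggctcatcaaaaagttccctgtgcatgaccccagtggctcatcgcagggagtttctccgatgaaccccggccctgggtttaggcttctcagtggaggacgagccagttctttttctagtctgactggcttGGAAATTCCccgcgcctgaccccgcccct
The Icam1 promoter held matches 153 to 145 and 84 to 76 bases before the start. Nfkbia held 3 matches, 211 to 203, 178 to 170 and 29 to 21 bases before the start, and the last overlaps a match to the longer κB consensus on the minus strand. Il1b had no match to either pattern in this window. RefSeq promoters were matched for 7 of the 10 genes, 11 promoters in all. GGNNNTTCC was present in 7 of these promoters, from 5 genes, and in 15.7% of 32851 promoters of this length. The κB consensus was present in 3, those of Nfkbia, Tnfaip3 and Nlrp3 with 1 promoter each, and in 7.25% of all; in each of these at least 1 of its matches overlapped GGNNNTTCC. A match is a stretch of letters and does not show binding.

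Among adhesion molecules, Icam1 was lower and Vcam1 differed by probe set. Icam1, the endothelial and hepatocyte ligand of leukocyte integrins, had 1 probe set, with a signal of 313 in L-Lpcat3 KO and 587 in Flox/Flox. This is 53.2% of the Flox/Flox signal, 1.88-fold lower (log2 ratio -0.91), and both signals lay well above the floor, at percentiles 72.4 and 80.0 of their arrays. Vcam1, which captures monocytes and lymphocytes through integrins, had 3 probe sets. The brightest read 567 in L-Lpcat3 KO and 570 in Flox/Flox (log2 ratio -0.01). The second read 213 in L-Lpcat3 KO and 189 in Flox/Flox (0.17). The third, an _a_at probe set, a suffix for sets that read alternative transcripts of 1 gene, read 230 in L-Lpcat3 KO and 113 in Flox/Flox, 2.03-fold higher (1.02). It was the 1 probe set of the 10 genes past 2-fold among those above the floor, and neither other Vcam1 probe set came near it. At 2-fold higher, 0.644% of all 20653 measured probe sets with 1 gene were counted.

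**Figure D1:**
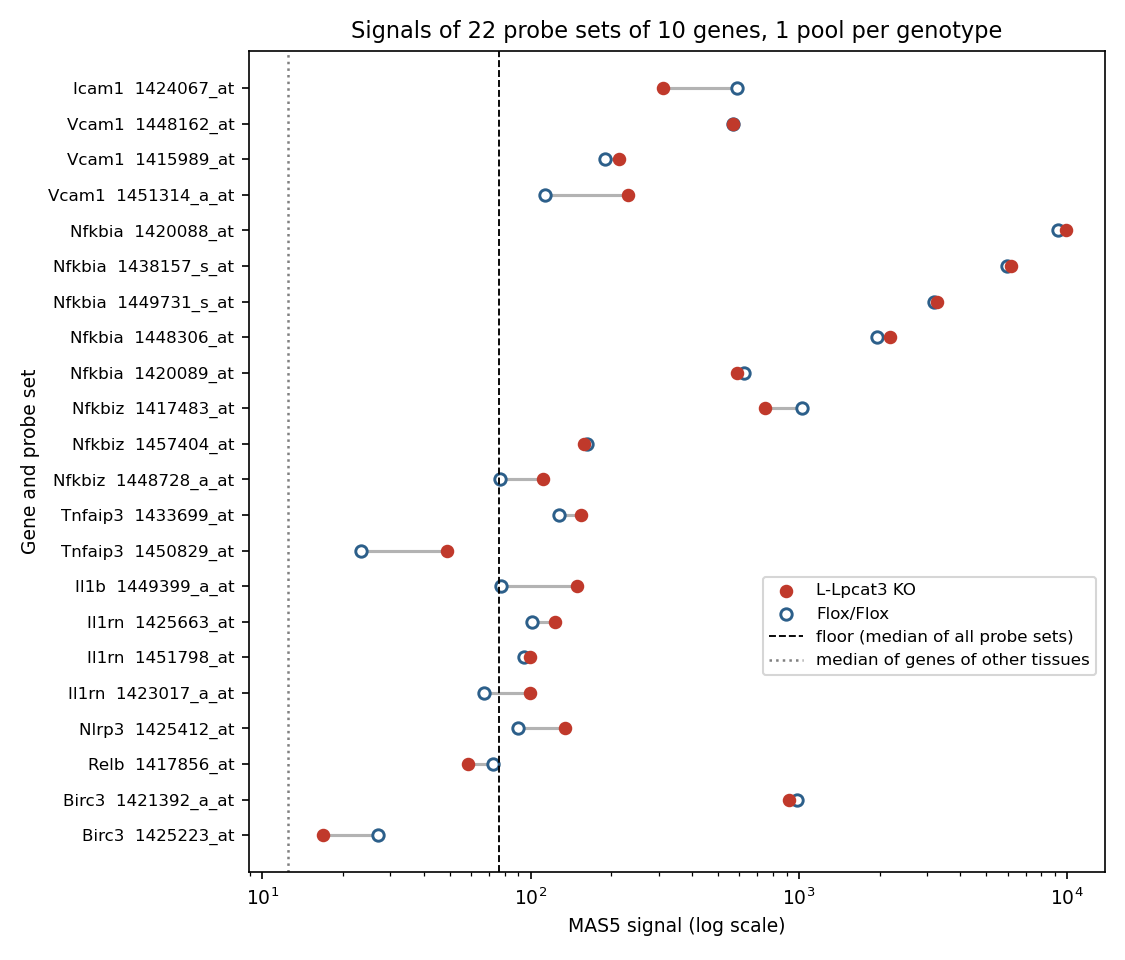
MAS5 signal (x axis, log scale) of each of the 22 probe sets of the 10 genes (y axis), red for the L-Lpcat3 KO pool and open blue for the Flox/Flox pool; the dashed line is the floor of 76.4 and the dotted line the median of 12.4 for genes of other tissues. The 5 Nfkbia probe sets have nearly overlapping points, Icam1 is to the left in L-Lpcat3 KO, and 3 probe sets lie below the floor in both pools.

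The genes of inhibitors that NF-κB induces to limit itself lay within 1.5-fold by their brightest probe sets. Nfkbia encodes IκBα, the cytoplasmic inhibitor whose gene NF-κB switches on to replace the protein lost in each cycle of activation, and its 5 probe sets gave the most repeated reading of the group. The brightest had signals of 9886 in L-Lpcat3 KO and 9254 in Flox/Flox (log2 ratio 0.10). The others read 6160, 3269, 2181 and 586 in L-Lpcat3 KO, against 5959, 3178, 1949 and 624 in Flox/Flox. Their log2 ratios together ran from -0.09 to 0.16, with 4 of 5 above 0. Probe sets of 1 transcript thus differed in brightness far more than the pools differed, so signals do not rank transcripts by abundance.

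Nfkbiz encodes IκBζ, a nuclear IκB protein that helps induce a second wave of inflammatory genes. Its brightest probe set read 746 in L-Lpcat3 KO and 1030 in Flox/Flox (1.38-fold lower, log2 ratio -0.47). A second read 159 in L-Lpcat3 KO and 162 in Flox/Flox (-0.03). The dimmest read 111 in L-Lpcat3 KO and 77.2 in Flox/Flox (0.53), close to the floor and in the opposite direction. Tnfaip3 encodes A20, a ubiquitin-editing enzyme that turns off signalling to NF-κB, and its brighter probe set read 154 in L-Lpcat3 KO and 128 in Flox/Flox (0.27). The other was below the floor in both pools, at 48.8 in L-Lpcat3 KO and 23.3 in Flox/Flox, so no ratio is given.

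Relb, the NF-κB subunit of the non-canonical pathway, had 1 probe set with signals of 58.6 in L-Lpcat3 KO and 72.4 in Flox/Flox, both below the floor. Birc3 encodes cIAP2, a ubiquitin ligase that joins TNF receptor complexes and restrains cell death. Its brighter probe set read 923 in L-Lpcat3 KO and 982 in Flox/Flox (log2 ratio -0.09), while the other was near background at 16.9 in L-Lpcat3 KO and 26.9 in Flox/Flox.

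The IL-1 and inflammasome genes were all dim, with ratios above 0. Of the 3, 2 were past 1.5-fold, beside 4.0% of all genes measured that were as much higher. Among measured genes not above 386 in both pools, 14.5% passed this size in either direction. Il1b, which encodes the cytokine precursor that caspase-1 cleaves, had 1 probe set, with a signal of 149 in L-Lpcat3 KO and 77.4 in Flox/Flox, 1.92-fold higher (log2 ratio 0.94). The Flox/Flox signal was barely above the floor, at percentile 50.9 of its array, and the L-Lpcat3 KO signal at percentile 62.0. Nlrp3, the sensor that assembles an inflammasome, read 135 in L-Lpcat3 KO and 89.5 in Flox/Flox, 1.51-fold higher (0.59). This value is just past 1.5-fold, and it fell short of that size after quantile normalization (0.53) or loess (0.56). With a pseudocount of 76.4 in place of the floor, neither gene reached 1.5-fold (0.55 for Il1b and 0.35 for Nlrp3). Il1rn encodes the antagonist that occupies the IL-1 receptor without signalling, and 2 of its 3 probe sets were above the floor in both pools. The brightest read 123 in L-Lpcat3 KO and 102 in Flox/Flox (0.28), and the next read 99.7 in L-Lpcat3 KO and 94.9 in Flox/Flox (0.07). The third read 99.9 in L-Lpcat3 KO and 67.0 in Flox/Flox, which is below the floor, so it was at least 1.31-fold higher. All 3 had the same direction, and the 2 with a ratio were within 1.5-fold.

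Across probe sets, 18 of the 22 were above the floor in both pools, 1 in L-Lpcat3 KO alone and 3 in neither. Of the 19 measured, 13 had ratios above 0 and 6 below, with 3 past 1.5-fold on the high side and 1 on the low side, against 4.40% and 3.62% of all measured probe sets with 1 gene. The 8 with both signals above 386 were evenly split, 4 above 0 and 4 below, and all 8 were within 1.5-fold. Of the other 11, which include Icam1, 9 were above 0. The share above 0 among all probe sets of this kind was not computed, so no tilt of these genes is read from this count. Among the 4 genes with several measured probe sets, Nfkbia, Nfkbiz and Vcam1 had probe sets in opposite directions, and Il1rn did not. Probe sets of 1 gene share its transcript and their pools, so they are not replicates.

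**Figure D2:**
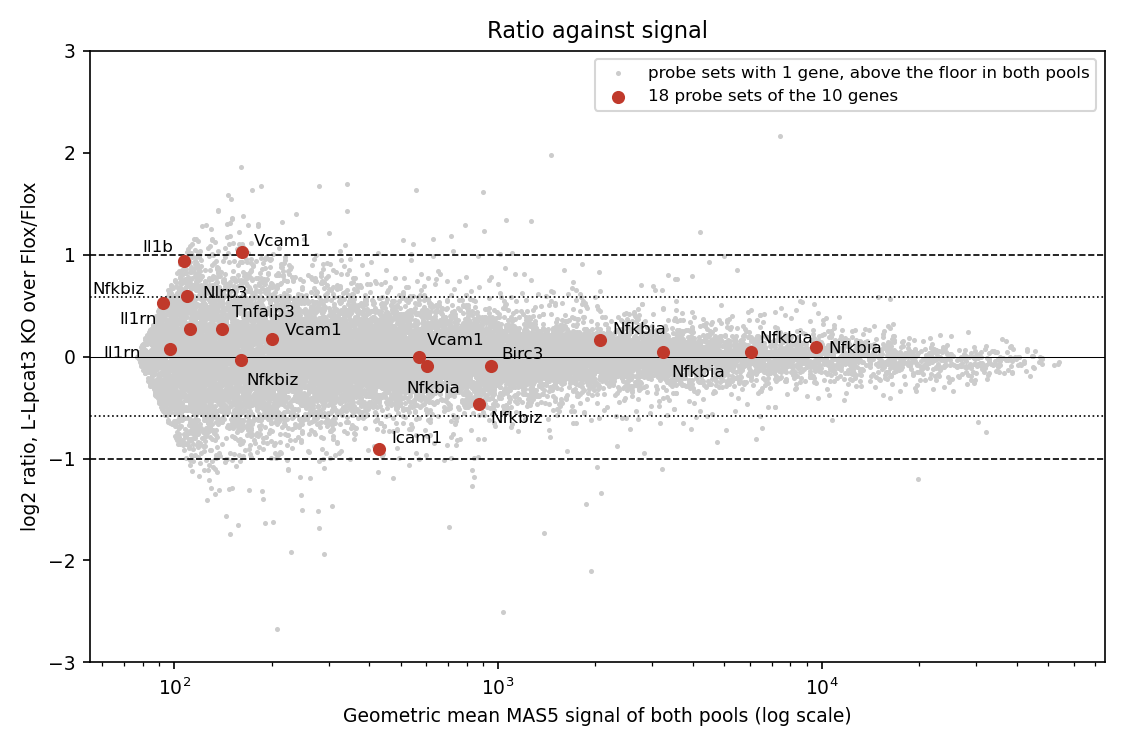
The y axis is the log2 ratio (L-Lpcat3 KO over Flox/Flox), and the x axis the geometric mean of the 2 MAS5 signals on a log scale, for probe sets with 1 gene above the floor in both pools (grey) and the 18 such probe sets of the 10 genes (red); dotted lines mark 1.5-fold and dashed lines 2-fold. Icam1 (-0.91) lies at the lower edge of the grey cloud at its signal, and Il1b (0.94) and 1 Vcam1 probe set (1.02) lie above most of the cloud at low signals.

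The measured receptors, adaptors, kinases and ubiquitin enzymes upstream of NF-κB lay within 1.5-fold by their brightest probe sets, as did most genes of the array. Of all genes measured, 4.0% were higher and 3.14% lower by this size. Of 22 kinases, adaptors and ubiquitin enzymes upstream of NF-κB, none was 1.5-fold apart, 8 had ratios above 0 and 14 below, and the median log2 ratio was -0.05, within a range of -0.49 to 0.42. The brightest were Tab2, an adaptor of the kinase TAK1, at 3925 in L-Lpcat3 KO and 4066 in Flox/Flox (-0.05), and Tax1bp1, a partner of A20, at 3225 in L-Lpcat3 KO and 3564 in Flox/Flox (-0.14). Of 16 receptors of TNF, IL-1 and microbial products with their adaptors, again none was 1.5-fold apart, and 8 were above and 8 below 0 (median -0.01). Il1rap, the shared chain of the IL-1 receptor, read 9355 in L-Lpcat3 KO and 8586 in Flox/Flox (0.12), with 3 dimmer probe sets at 0.24, 0.13 and -0.28. The kinase Irak1 read 2566 in L-Lpcat3 KO and 2806 in Flox/Flox (-0.13) by its brightest probe set, an _x_at set, a suffix for sets whose probes may also bind other transcripts. The 3 dimmer sets of Irak1 were above 0 (0.58, 0.03 and 0.09), and its ratio turned to 0.14 by the mean of probe sets and 0.088 without _x_at sets.

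Of the NF-κB subunits and other IκB proteins, 5 of 8 were measured and all 5 had ratios below 0 by their brightest probe sets (median -0.25). The median was 0.020 without _s_at and _x_at sets, and -0.25 by the mean of probe sets. Without _s_at sets, Nfkbib and Nfkbie were read by probe sets whose Flox/Flox signals were below the floor. Rela, the main activating subunit, read 1951 in L-Lpcat3 KO and 2051 in Flox/Flox (log2 ratio -0.07), and Nfkbib, which encodes IκBβ, read 901 in L-Lpcat3 KO and 946 in Flox/Flox (-0.07). The other Nfkbib probe set read 88.6 in L-Lpcat3 KO and 13.2 in Flox/Flox, which is below the floor, so its log2 ratio was at least 0.21. Nfkbie, which encodes IκBε, was the 1 member past 1.5-fold, at 79.1 in L-Lpcat3 KO and 132 in Flox/Flox (1.67-fold lower). Its other probe set, at 82.5 in L-Lpcat3 KO and below the floor in Flox/Flox (53.7), had a log2 ratio of at least 0.11, the opposite sign, with the Flox/Flox signal at the floor, so the direction of Nfkbie is not settled by these arrays.

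Of 14 measured genes among the other inflammasome genes, 8 had ratios above 0, 1 was at least 1.5-fold higher and none as much lower (median 0.08), beside 4.0% and 3.14% of all genes measured. The higher one was Txnip, a thioredoxin-binding protein reported to bind Nlrp3, at 2726 in L-Lpcat3 KO and 1536 in Flox/Flox (1.77-fold), with a second probe set at 628 in L-Lpcat3 KO and 368 in Flox/Flox (log2 ratio 0.77). Nek7, a kinase that licenses Nlrp3, read 4536 in L-Lpcat3 KO and 4257 in Flox/Flox (0.09), and Nlrp12 read 5176 in L-Lpcat3 KO and 4634 in Flox/Flox (0.16). Of 36 other NF-κB targets listed, 16 were below the floor in both pools, among them Tnf, Il6, Ccl2 and Cxcl2, which encode cytokines and chemokines of acute inflammation. Of the 20 measured, 14 had negative ratios, 4 were lower by 1.5-fold or more and 1 as much higher (median -0.15), beside 3.14% and 4.0% of all genes measured. The 8 measured genes of other tissues (4 of these exceeded the floor in each pool) had a median of -0.19, with 6 below 0 and none past 1.5-fold. The lower ones were Lcn2, an iron-siderophore binder, at 938 in L-Lpcat3 KO and 4028 in Flox/Flox (4.29-fold), the acute-phase gene Saa3 at 760 in L-Lpcat3 KO and 2528 in Flox/Flox (3.33-fold), and the chemokines Cxcl10 (1.93-fold) and Cxcl1 (1.75-fold, with its 2 other probe sets at -0.39 and -0.90). Gadd45b, a stress-induced gene, had a brightest probe set that was 1.71-fold higher, at 158 in L-Lpcat3 KO and 92.2 in Flox/Flox, against a log2 ratio of -0.38 by a second set and of -0.33 or below by the third, whose L-Lpcat3 KO signal (56.3) was under the floor. Sod2, the mitochondrial superoxide dismutase, read 13066 in L-Lpcat3 KO and 13027 in Flox/Flox (0.00) by its brightest probe set, with 2 dimmer ones at -0.25 and -0.18. The dimmest Sod2 probe set read 139 in L-Lpcat3 KO and 90.3 in Flox/Flox (0.62). Xiap, named with Sod2 for brightness, read 3863 in L-Lpcat3 KO and 4113 in Flox/Flox (-0.09). Its other measured probe sets were at -0.34, 0.33 and -0.29. Icam1 therefore lay on the same side as Lcn2, Saa3, Cxcl1 and Cxcl10, and Il1b and Nlrp3 on the other.

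**Figure D3:**
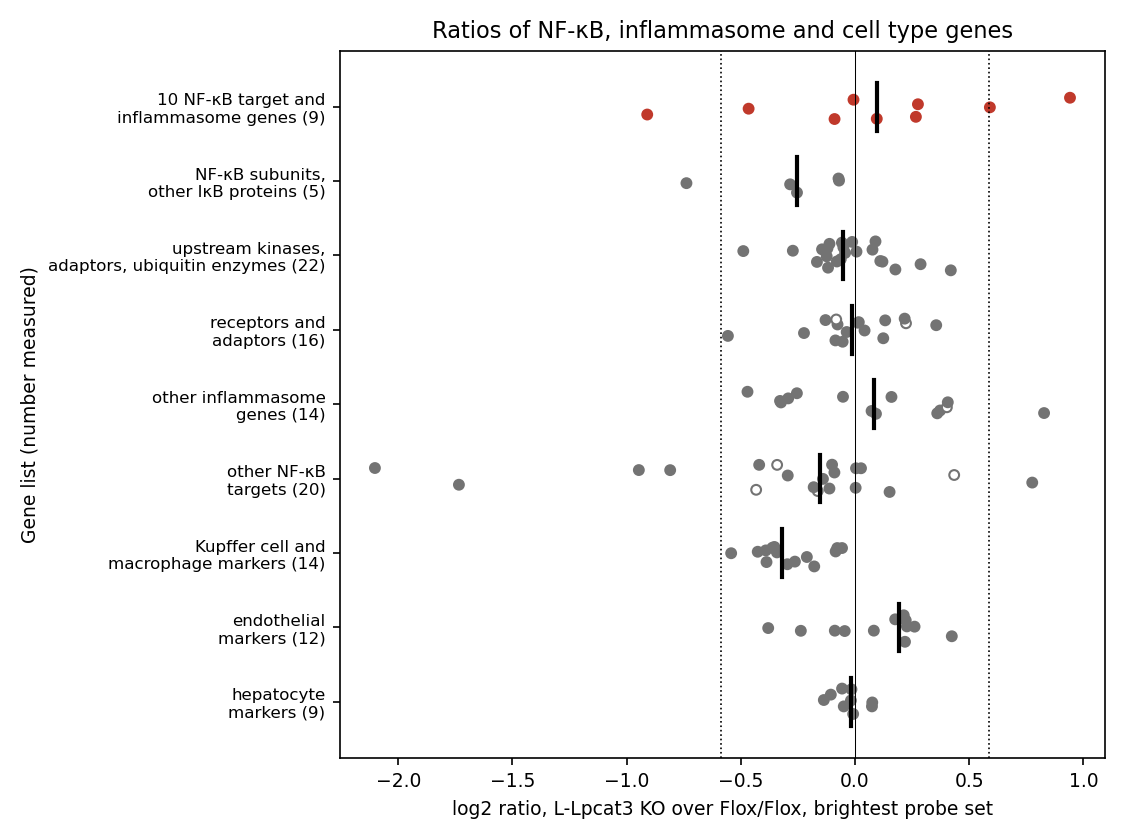
The x axis is the log2 ratio (L-Lpcat3 KO over Flox/Flox) by the brightest probe set, for the measured genes of 9 lists (y axis, number measured in parentheses), 1 point per gene, red for the 10 genes reported here; open points have 1 pool at the floor, black bars are medians and dotted lines mark 1.5-fold. The other NF-κB targets reach down to -2.10 (Lcn2), whereas the upstream kinases, adaptors and ubiquitin enzymes stay between -0.49 and 0.42.

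Markers of cells that may carry these genes were examined alongside. All 14 Kupffer cell and macrophage markers had ratios below 0 (median -0.32, none past 1.5-fold), with a summed signal of 14367 in L-Lpcat3 KO and 17020 in Flox/Flox. Their brightest were Csf1r at 2921 in L-Lpcat3 KO and 3083 in Flox/Flox, and Mpeg1 at 2269 in L-Lpcat3 KO and 2969 in Flox/Flox. Of 12 endothelial markers, 8 were above 0 (median 0.19, none past 1.5-fold), with a summed signal of 10666 in L-Lpcat3 KO and 9439 in Flox/Flox. Of the neutrophil markers, 7 of 11 with a probe set here were measured. Among these, 5 were below 0 (median -0.12). By at least 1.5-fold, 1 was higher and 2 lower, beside 4.0% and 3.14% of all genes measured. Only 2 of the 7 exceeded the floor in each pool. The ratios of the others have 1 signal raised to the floor and are least sizes, and the median is such a value. The summed signal of all 11, those below the floor included, was 649 in L-Lpcat3 KO and 839 in Flox/Flox. Prtn3 alone read 81.1 in L-Lpcat3 KO and 271 in Flox/Flox. No marker of these lists was listed at 0. The part of these cell types in the ratios above was not tested, and in bulk liver fewer cells of a type and less RNA per cell cannot be told apart.

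**Figure D4:**
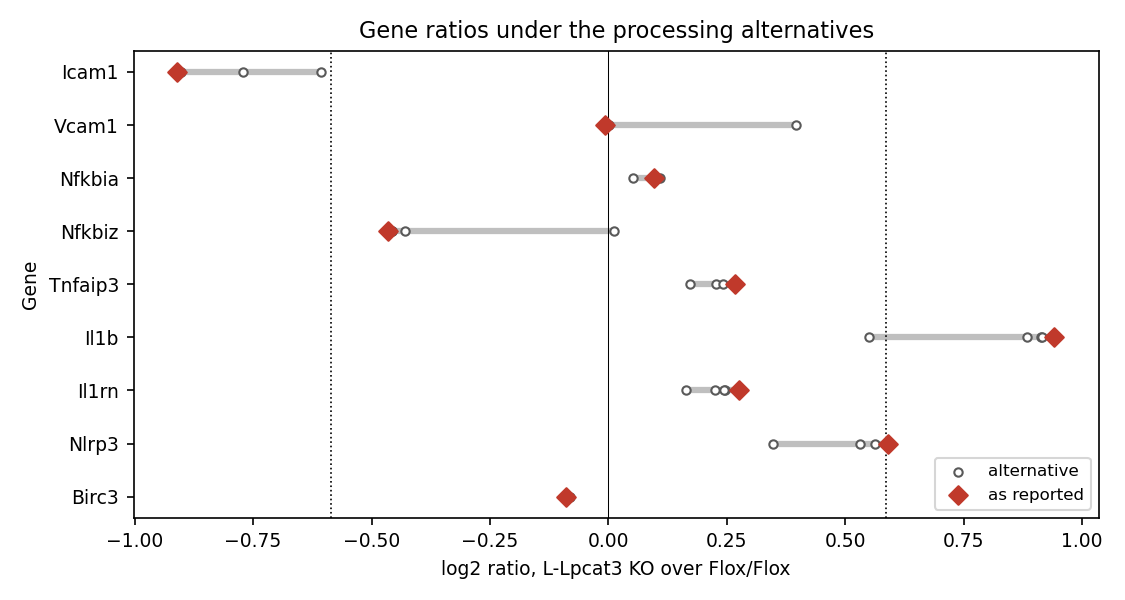
The x axis is the log2 ratio (L-Lpcat3 KO over Flox/Flox) for the 9 measured genes (y axis), red diamonds as reported and open circles under each alternative of scaling, floor or gene value; grey bars span all values and dotted lines mark 1.5-fold. Icam1 stays past 1.5-fold throughout (-0.91 to -0.61), Nlrp3 crosses the line (0.35 to 0.59), and Vcam1 and Nfkbiz move most when probe sets are averaged.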

How the data were processed

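Liver RNA of 2 pools of 5 mice, 1 pool per genotype, was measured on 1 array each. The values that the authors deposited are signal intensities, 1 for each probe set of an array, which per the labels came from MAS5, a background-corrected summary of probe pairs. Its version and the genome build are not given in the sources used here. Without the lowest and highest 2% of signals, the mean of each array was 500.0, so both had been scaled to 1 level. The methods name GeneSpring GX for the study's own analysis. Gene names came from GEO's platform annotation, and outdated symbols were replaced by those of RefSeq (GRCm38.p6) through the gene ID. Of 45101 probe sets, 64 were controls, 34945 had 1 gene, 932 several and 9160 none here. The deposited intensities were not scaled again before log2 ratios (L-Lpcat3 KO over Flox/Flox) were taken. A gene was measured if 1 array exceeded the floor (76.4), and took the value of its brightest probe set. Probe sets with both signals below the floor got no ratio. Genes were counted at 1.5-fold and 2-fold, without tests. Besides the 10 genes, the rule named list members past 1.5-fold above the floor in both pools (at most 4 each way) and the 2 brightest; Tnf, Il6, Ccl2 and Cxcl2 were named after their values were seen. With 2 arrays no likeness of pattern between genes can be measured. The genes, lists and sizes were chosen with earlier results of these data known. The precision is limited by the number of arrays. Promoters were RefSeq sequences. Scripts were tested on simulated data. Python 3.11.15, numpy 2.4.6, pandas 2.3.3, statsmodels 0.14.6 and matplotlib 3.10.9 were used.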

Additional observations from a re-analysis of the deposited data

How the results depend on the processing

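Each value was recomputed under 10 alternatives: median centring, quantile normalization, loess (span 0.3), floors at the 25th or 75th percentile or at the 90th percentile of genes of other tissues (78.8), no floor, a pseudocount, the mean of probe sets, and no _s_at or _x_at probe sets. Icam1 was the 1 gene of the 10 at least 1.5-fold lower under all of them. The number at least 1.5-fold higher, 2 as reported, was 1 after quantile normalization and after loess, and 0 both with the pseudocount and with the floor at the 75th percentile, where Il1b and Nlrp3 are not measured. The median ratio was -0.0897 over the 5 genes measured under the highest floor (75th percentile), and 0.24 over 9 genes by the mean of probe sets. Averaging probe sets moved Vcam1 to 0.40 and Nfkbiz to 0.01. For NF-κB subunits and other IκB proteins, the median was -0.0712 under the 75th percentile floor and 0.020 without _s_at and _x_at probe sets, where Nfkbie turned to 0.11; 2 were lower and 1 higher with the floor at the 25th percentile or none, and 0 were lower with the floor at the 75th percentile, the pseudocount, the mean of probe sets or no _s_at and _x_at probe sets. Among receptors, 1 was lower after quantile normalization and with the floor at the 25th percentile or none. Among other inflammasome genes, 2 were higher with the floor at the 25th percentile or none, and 1 was lower with no floor. Among other NF-κB targets, as reported 1 higher and 4 lower, 3 were higher and 8 lower with the floor at the 25th percentile. With no floor, 6 were higher and 11 lower. With the floor at the 75th percentile 0 were higher and 3 lower, and with the pseudocount 0 higher and 6 lower. The mean of probe sets gave 0 higher and 4 lower. Without _s_at and _x_at probe sets, 2 were higher and 4 lower. Lower floors add genes near background; other causes were not tested. No paired analysis was possible because each genotype has 1 array.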

Other observations

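Other cell type lists gave values that belong to no comparison above. Among neutrophil markers, the granule genes Prtn3 (81.1 in L-Lpcat3 KO and 271 in Flox/Flox, 3.34-fold lower) and Mpo (80.1 in L-Lpcat3 KO and 124 in Flox/Flox, 1.55-fold lower) were the 2 above the floor in both pools, and the L-Lpcat3 KO signals of both were close to the floor. The receptor gene Csf3r, named after its value was seen, was at least 1.57-fold higher (120 in L-Lpcat3 KO and 29.7, below the floor, in Flox/Flox). The measured monocyte markers were Plac8 (log2 ratio -0.45) and Ccr2, which was at least 1.19-fold higher. Of 4 lymphocyte markers measured, 2 were above 0 and 2 below (median 0.07). Prf1 read 175 in both pools, and its other measured probe set was under the floor in L-Lpcat3 KO (70.9) and at 96.7 in Flox/Flox. Cd8a had a log2 ratio of -0.33 by an _x_at probe set and 0.04 by another. Of 9 stellate cell markers, the collagen Col3a1 was 1.53-fold lower (1151 in L-Lpcat3 KO and 1758 in Flox/Flox), while Dcn (0.05) and Colec11 (0.01) differed little. Of 4 bile duct cell markers, 3 were above 0 and 1 below (median 0.34). Epcam, an adhesion molecule named after its value was seen, was at least 1.68-fold higher by an _x_at probe set. That set read 128 in L-Lpcat3 KO and 58.4, below the floor, in Flox/Flox. The other measured Epcam set had a log2 ratio of 0.37, with any signal below the floor raised to it. The transcription factor Sox9 was 2.08-fold lower (77.6 in L-Lpcat3 KO and 162 in Flox/Flox), with a second probe set at -0.44 or below, since its L-Lpcat3 KO signal (74.4) was under the floor. Tspan8 had a log2 ratio of 0.27. Among endothelial markers, Clec4g was at 0.23 and Fcgr2b at 0.22 (its 3 other measured probe sets at 0.51, 0.04 and -0.12), and among hepatocyte markers Apoa1 was at -0.05 and Cyp3a11 at -0.02.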
